A study of Arabidopsis thaliana with 8 samples.

Results

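The genes described here were 48 nuclear genes of Arabidopsis that build and run the plastid: regulators of greening and plastid signalling, the plastid division machinery, the plastid transcription machinery, the protein import machinery of both envelope membranes, and the plastid chaperonins. They were chosen by locus for their function, with earlier results of these data known but with no measured value in the rule, out of 27444 nuclear protein-coding genes. Each was searched for peaks of GNC and CGA1, a pair of closely related GATA-type transcription factors, from 2 kb upstream of the gene to 1 kb downstream of it.

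ChIP-seq had been performed on rosette leaves of 3-week-old Col-0 plants grown in long days that overexpressed myc-GNC or myc-CGA1. Chromatin was immunoprecipitated with an anti-myc antibody, and an INPUT sample was kept from each chromatin, with 2 biological replicates per line and 8 libraries in all. All groups thus carried a tagged, overexpressed factor. Which promoter drove the transgenes in these lines is not given in the sources used here, and no untagged or wild-type immunoprecipitate was analysed, so a peak is an enrichment over INPUT in an overexpression line and not a comparison with plants lacking the tag.

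The deposited data were 4 peak lists, 1 per replicate, with 5745 and 5722 peaks for GNC and 2456 and 2399 for CGA1. Each peak has a score, which is 10 times the negative log10 of the MACS p-value of IP against INPUT, so that a higher score is a more significant enrichment. It started at 50 in every list, and its median was 62.5 to 65.6. Where peaks of the GNC replicates overlapped, which 4734 did, their edges were always identical, and in CGA1 92.3% of the edges were 0 or 4 bp apart. Both lists of a line were for this reason counted as 1 sample, which leaves no spread between replicates and no test. A gene was called for a factor when both lists of the line held a peak that overlapped its window by at least 1 bp. Read counts are not part of these lists, and sequencing depth was not analysed here.

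Plastids divide by a ring of tubulin-like FtsZ proteins inside the organelle that is coupled across the envelope to a dynamin-like ring outside it. Their genes are read by a plastid-encoded RNA polymerase (PEP), which needs nuclear-encoded sigma factors to find promoters and a set of nuclear-encoded associated proteins to work, and by a nuclear-encoded phage-type polymerase. Most plastid proteins are made in the cytosol, enter through the TOC complex of the outer envelope and the TIC complex of the inner envelope, and fold with the help of plastid chaperonins. GNC and CGA1 are known for promoting greening and chloroplast number.

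GNC peaks were found at 13 of the 48 genes, or 27.1%, against 22.9% of all protein-coding genes. CGA1 peaks were found at 8, or 16.7%, against 9.94%. Peaks of both factors were found at 3 genes, or 6.25%, against 2.57%, and these were PTAC10, SIG4 and TIC40. At the share seen over all protein-coding genes, 11.0 of 48 genes would be called for GNC, 4.77 for CGA1 and 1.23 for both, so each count was above that level by a few genes. The GNC share was 1.18 times that of all genes and the CGA1 share 1.68 times. In all, 18 of the genes were called for at least 1 factor, 5 more had a peak in a single list only, and 25 had no peak in any list. That last share, 52.1%, compares with 59.3% of all protein-coding genes.

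A peak in at least 1 of the lists of a line was a looser call. It held for 18 of the 48 genes for GNC, or 37.5%, against 30.9%, and for 10 for CGA1, or 20.8%, against 15.0%. The promoter was a stricter place to look. A GNC peak centred between 1 kb upstream and 100 bp downstream of the gene start was found in both lists at TOC132 and SIG3 only, 4.17% of the genes against 5.35% of all protein-coding genes. No gene of the set had a CGA1 peak there in both lists, against 2.25% of all.

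**Figure D1:**
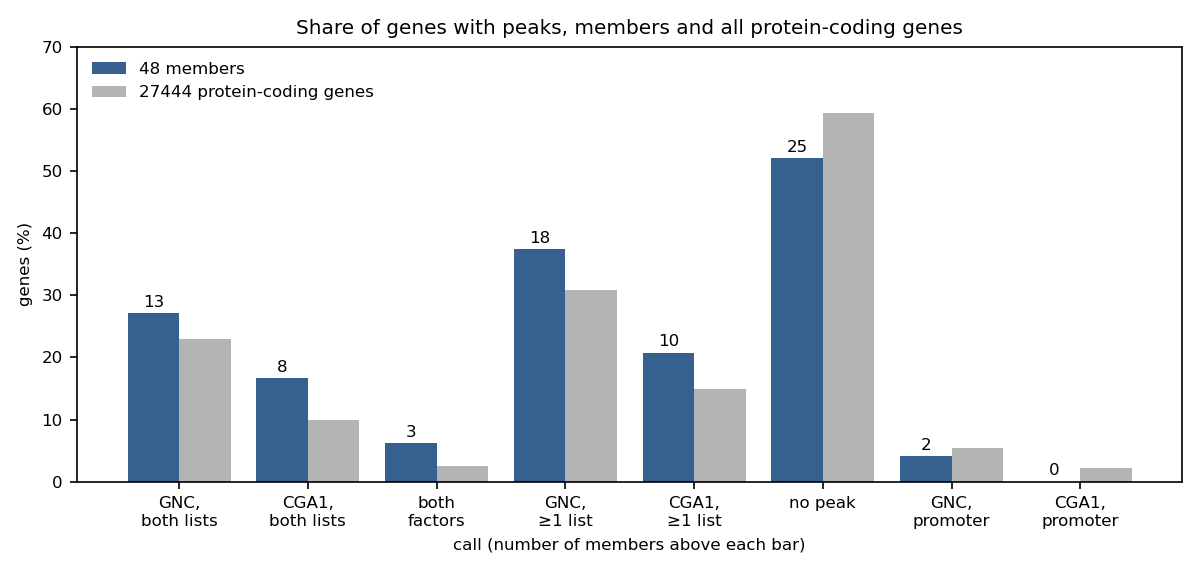
Share of genes (%, vertical axis) that met each call, for the 48 plastid genes (blue, with their number above the bar) and for 27444 protein-coding genes (grey). The blue bar is the higher in every call except the absence of peaks and the promoter calls, where 2 genes for GNC and 0 for CGA1 were found.

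The windows of these genes were long. The median gene length was 3117 bp against 2078 bp for all protein-coding genes, and 25 of the 48 belonged to the longest of 4 classes of equal size by gene length. In that class, 30% of all genes were called for GNC and 13.1% for CGA1, and 8 and 5 of the 25 were. In the class from 2079 to 3030 bp, 0 and 1 of 10 plastid genes were called, against 24.5% and 10.6% of all. From 1324 to 2078 bp, 5 and 2 of 13 were, against 20.7% and 9.02%. In the shortest class, which held 0 of the 48, 16.5% of all genes were called for GNC and 6.98% for CGA1. Per 100 kb of window, the plastid genes held 6.72 and 5.37 GNC peaks in replicates 1 and 2, and all protein-coding genes 5.81 and 5.82. For CGA1 the density was 3.02 in both replicates, against 2.53 and 2.45. The GNC density was thus above that of all genes in 1 replicate and below it in the other, while that of CGA1 was above it in both. The CGA1 values rest on 9 peaks in each list, 8 of them found in both lists, which count as 1 sample. The part of gene length in the counts was not tested.

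PTAC10, SIG4 and TIC40 were the genes with peaks of both factors. PTAC10 is an S1-domain protein of the PEP complex, SIG4 is a sigma factor, and TIC40 is an inner envelope co-chaperone of import. In none of them did the peaks of the factors touch: in replicate 1 they lay 2424 bp apart at PTAC10, 1112 bp at SIG4 and 4297 bp at TIC40. How often such peaks touch at the 706 protein-coding genes called for both factors was not counted, so this is no trait of the set.

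PTAC10 (AT3G48500, chr3:17962080-17965723, plus strand) held the highest-scoring peak of the whole set. Its GNC peak, 168 bp long and centred 2079 bp into the gene in intron 7 of 10, scored 169.87 in replicate 1 and 169.87 in replicate 2. It ranked 31st of 5745 peaks and 29th of 5722. Both its edges and its score were the same in the replicates, which held for 11.5% of the overlapping GNC peaks. Only 89 of those peaks were shorter than 200 bp, and 6 of the 89 had the same score in both lists. The CGA1 peak of PTAC10 was a weak one, 52.06 in both lists, centred 1141 bp past the gene end with its near edge 945 bp from it. The sequence at both centres is printed below because PTAC10 carried the strongest GNC peak and a peak of each factor. All sequences shown are 201 bp around the peak centre, from the TAIR10.1 reference and on the strand of the gene, with GATA and GATC on either strand in capitals, so that GATA on the other strand reads TATC.
PTAC10 GNC, chr3:17964059-17964259, plus strand: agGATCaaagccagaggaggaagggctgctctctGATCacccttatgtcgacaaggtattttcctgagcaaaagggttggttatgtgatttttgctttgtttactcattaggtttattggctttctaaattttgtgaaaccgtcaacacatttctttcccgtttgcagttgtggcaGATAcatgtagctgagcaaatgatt
PTAC10 CGA1, chr3:17966764-17966964, plus strand: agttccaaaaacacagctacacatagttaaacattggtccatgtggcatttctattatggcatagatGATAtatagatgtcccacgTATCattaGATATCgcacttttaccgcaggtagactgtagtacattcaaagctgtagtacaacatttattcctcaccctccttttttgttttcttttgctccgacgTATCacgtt
The GNC window held 1 GATA and 2 GATC. The CGA1 window held 5 GATA and 0 GATC.

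SIG4 (AT5G13730, chr5:4429095-4430901, minus strand) had a GNC score below the list median and CGA1 scores above it. The GNC peak scored 58.73 in both lists and was centred 1153 bp upstream of the gene, 243 bp upstream of the start of ZIF1, which was the nearest gene start. The CGA1 peak scored 66.78 and 71.62 and was centred in coding exon 1 of 4, 285 bp from the start in replicate 1. Both are printed because peaks of the factors lay at different places of 1 gene window.
SIG4 GNC, chr5:4431954-4432154, minus strand: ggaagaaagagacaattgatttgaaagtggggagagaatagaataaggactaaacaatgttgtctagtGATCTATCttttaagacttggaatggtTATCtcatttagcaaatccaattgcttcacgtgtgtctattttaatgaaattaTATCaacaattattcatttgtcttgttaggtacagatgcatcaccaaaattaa
SIG4 CGA1, chr5:4430516-4430716, minus strand: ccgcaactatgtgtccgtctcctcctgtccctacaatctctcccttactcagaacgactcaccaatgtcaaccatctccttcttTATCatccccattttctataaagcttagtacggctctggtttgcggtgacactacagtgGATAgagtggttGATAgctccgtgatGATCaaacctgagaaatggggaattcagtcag
Each of these windows held 3 GATA and 1 GATC. The upstream window also held the only CACGTG among the GNC windows of these genes.

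TIC40 (AT5G16620, chr5:5450620-5454577, plus strand) held the highest-scoring CGA1 peak of the set in replicate 1, while TOC120 did in replicate 2 with 74.12. The TIC40 peak scored 109.7 in replicate 1, where it ranked 128th of 2456, and 72.99 in replicate 2, where it ranked 662nd of 2399. The peak was 667 bp long in the first list and 500 bp in the second, with its centre in intron 10 and in intron 9 of 13. The GNC peak of TIC40 scored 84.68 and 89.01 and was centred 1773 bp upstream, next to a small nucleolar RNA gene that starts 71 bp away. The windows of TIC40 are shown as a contrast between the factors at 1 gene.
TIC40 GNC, chr5:5448747-5448947, plus strand: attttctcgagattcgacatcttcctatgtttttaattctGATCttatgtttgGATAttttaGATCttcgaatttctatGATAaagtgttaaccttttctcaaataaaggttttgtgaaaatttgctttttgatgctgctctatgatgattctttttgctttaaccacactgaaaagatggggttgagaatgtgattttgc
TIC40 CGA1, chr5:5453499-5453699, plus strand: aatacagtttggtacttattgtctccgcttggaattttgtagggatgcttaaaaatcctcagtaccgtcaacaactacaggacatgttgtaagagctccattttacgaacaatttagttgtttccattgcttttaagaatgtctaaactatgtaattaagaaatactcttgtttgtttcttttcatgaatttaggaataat
The GNC window held 2 GATA and 2 GATC, and the CGA1 window 0 of either.

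**Figure D2:**
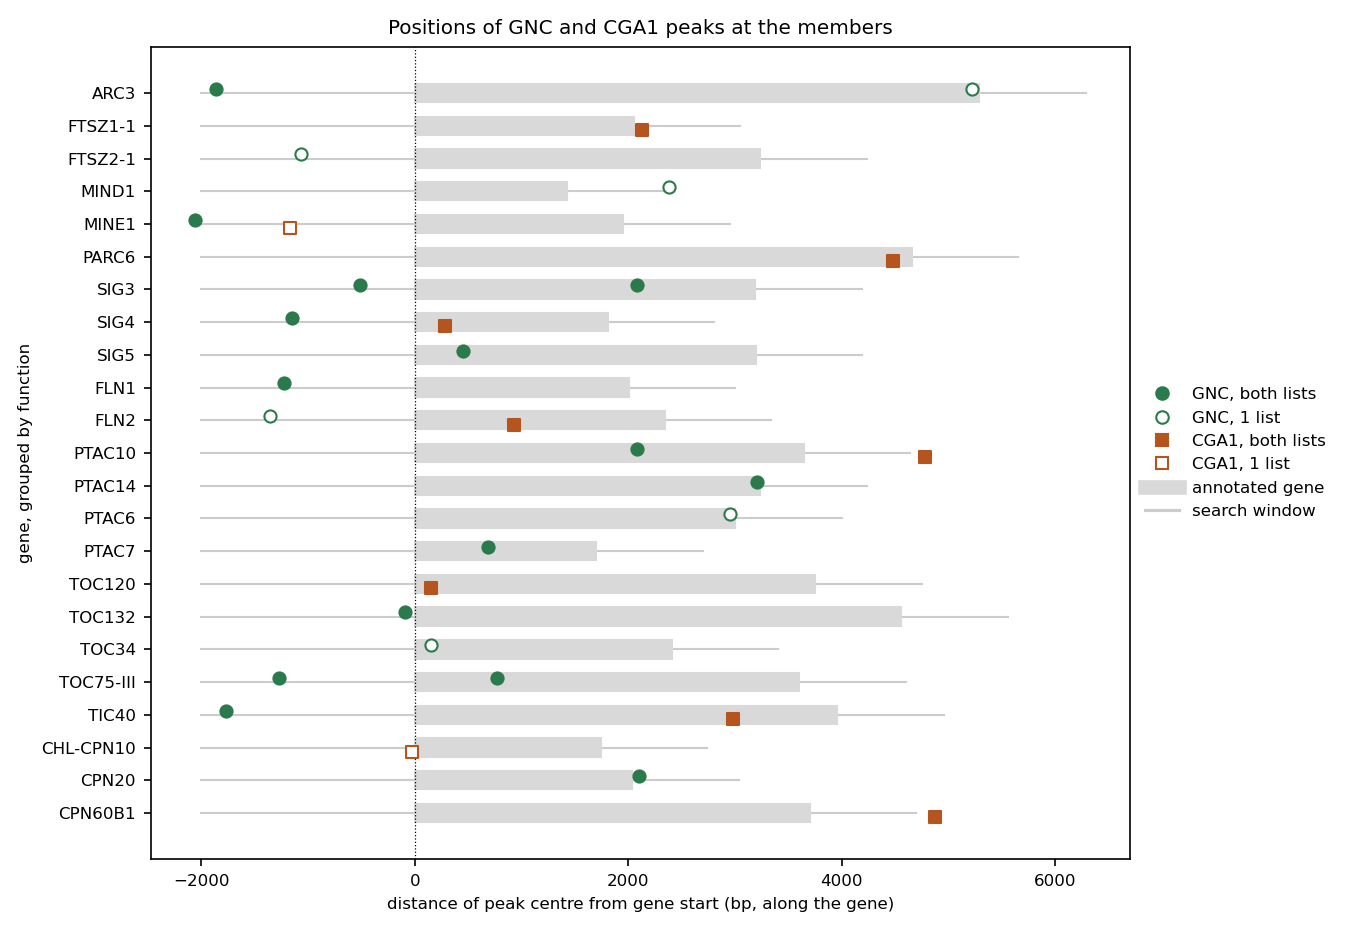
Position of every peak at the 23 genes with a peak in any list, as the distance of the peak centre from the gene start (bp, horizontal axis, along the gene). Grey bars are the annotated genes, thin lines the searched window, circles GNC, squares CGA1, and filled symbols peaks found in both lists; at PTAC10, SIG4 and TIC40 the filled symbols of the factors stand apart, by 1112 bp or more between peak edges.

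Of the 15 GNC peaks found in both lists, 8 were centred upstream, 6 within the gene and 1 downstream, or 53.3%, 40% and 6.67%, against 38.9%, 40% and 21.1% over all protein-coding genes. Of the 8 CGA1 peaks, 0 were upstream, 5 within and 3 downstream, or 0%, 62.5% and 37.5%, against 40.3%, 39.1% and 20.6%. These differences were not tested. Many peaks could be read with a neighbour: 7 of the 15 GNC peaks and 1 of the 8 CGA1 peaks were centred inside another annotated gene, and 6 of the 8 upstream GNC peaks were. The nearest gene start was that of the plastid gene itself for 5 of the 15 GNC and 3 of the 8 CGA1 peaks. These counts were not made for the peaks of all protein-coding genes. Peaks centred in another gene were left out in an alternative chosen after seeing the data. For GNC the called share then went from 27.1% to 16.7% of the plastid genes and from 22.9% to 16.0% of all. For CGA1 it went from 16.7% to 14.6% and from 9.94% to 6.92%. Which of the neighbouring genes a peak bears on was not tested.

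The scores at the plastid genes ran from 53.34 to 169.87 for GNC and from 52.06 to 109.7 for CGA1, whereas the lists reached 556.44 and 646.47 in the GNC replicates and 457.19 and 610.72 in those of CGA1. In replicate 1 the median was 75.79 for GNC, against 69.75 over the both-list peaks of all protein-coding genes, and 68.42 for CGA1, against 66.62. In replicate 2 it was 72.11 against 69.2 for GNC and 71.58 against 65.45 for CGA1. Of the GNC peaks 20% scored 100 or more in replicate 1, against 13.3%, and 13.3% in replicate 2, against 14%. Of the CGA1 peaks 12.5% did in replicate 1, against 9.89%, and 0 in replicate 2, against 10.4%. The share of high scores was thus above that of all genes in replicate 1 only.

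**Figure D3:**
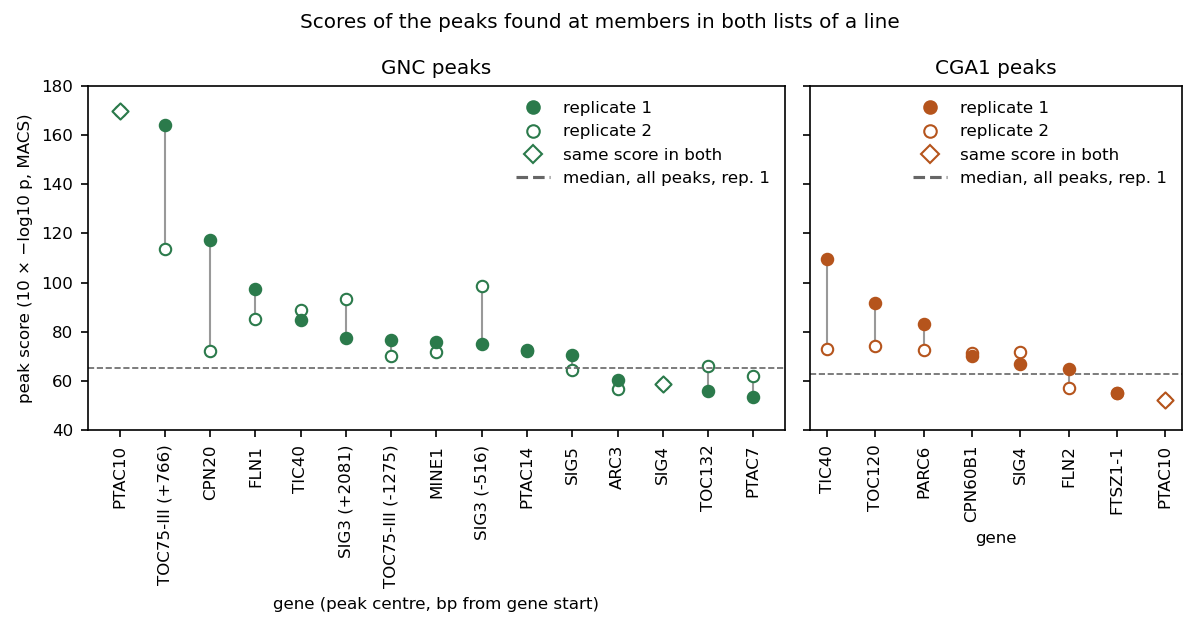
Score of each peak found in both lists (vertical axis, 10 times the negative log10 p of MACS), for GNC (green, left) and CGA1 (orange, right), with replicate 1 filled, replicate 2 open, diamonds where the scores are equal and a dashed line at the median of all peaks of replicate 1. PTAC10 and TOC75-III stand above the other GNC peaks in replicate 1 with 169.87 and 164.11, and most of the other peaks lie below 100.

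The regulators of greening and signalling had no peak of either factor within their windows, as had 59.3% of all protein-coding genes. GLK1 and GLK2 encode GARP-family transcription factors that switch on nuclear photosynthesis genes, and GUN1 encodes a pentatricopeptide repeat protein that acts in plastid-to-nucleus signalling. At GLK1 the nearest CGA1 peak lay 2052 bp upstream, just beyond the window, with scores of 62.7 and 59.68. At GLK2 the nearest GNC peak lay 1394 bp past the gene end and scored 144.07 in both lists. The closest peak to GUN1 was a CGA1 peak 1366 bp past the gene end, which scored 59.44 and 88.99. The nearest peak of each of the 3 regulators thus lay outside its window. These peaks were of either factor and on either side of the gene. Within 2 kb of the gene, overlaps included, 30.5% of all protein-coding genes had a GNC peak and 14.5% a CGA1 peak in replicate 1. How many of all genes have a peak near the window but none inside it was not counted, so this is no trait of the regulators.

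Among the 11 division genes, 2 were called for GNC and 2 for CGA1, and none for both. The shares, 18.2%, 18.2% and 0%, compare with 22.9%, 9.94% and 2.57% of all protein-coding genes. The GNC genes, MINE1 and ARC3, encode proteins that keep the division ring at midplastid. MINE1 had a GNC peak of 75.79 and 71.92 centred 2058 bp upstream, inside the neighbouring gene RRG. ARC3 had a GNC peak of 60.46 and 56.6 centred 1862 bp upstream, inside LPAT4. Both peaks were thus at the far end of the window and in another gene. ARC3 had a further GNC peak of 58.18 in its 3′ UTR in replicate 2 only, and MINE1 a CGA1 peak of 52.34 in replicate 1 only.

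FTSZ1-1 and PARC6 were the division genes called for CGA1. FTSZ1-1, which encodes a ring protein, had a peak of 54.91 and 55.27 centred 79 and 81 bp past the gene end. PARC6, an inner envelope protein that places the outer division proteins, had one of 83.3 and 72.4 in its 3′ UTR, 176 bp before the gene end. Both peaks lay at the 3′ end of the gene. Its relative ARC6, which anchors the ring, had no peak, the nearest being 18024 bp away for GNC in both lists and 24314 bp and 42596 bp away for CGA1 in replicates 1 and 2.

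The other division genes were not called for either factor. FTSZ2-1 had a GNC peak of 76.42 in replicate 1 only, 1068 bp upstream and inside AT2G36255, and FTSZ2-2 had none, its nearest peak being a GNC peak 7083 bp away. MIND1, the partner of MINE1, had a GNC peak of 56.33 in replicate 1 only, 962 bp past its end and inside SLAH3. The outer envelope proteins PDV1 and PDV2 had no peak. The nearest GNC peak was 9201 bp from PDV1 in replicate 1 and 24114 bp in replicate 2, and 4767 bp from PDV2 in both. ARC5, the dynamin-like protein they recruit, had none either. It had a CGA1 peak of 52.54 in both lists 1123 bp past the gene end, outside the window. The CGA1 peaks of PTAC10 and CPN60B1 had their near edges 945 bp and 966 bp past the gene end in replicate 1, and so overlapped the window, with their centres outside it. With the centre required inside the window, 6 genes in place of 8 were called for CGA1.

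Of the 6 sigma factor genes, 3 were called for GNC, namely SIG3, SIG4 and SIG5, and SIG4 also for CGA1. That is 50% and 16.7%, against 22.9% and 9.94% of all protein-coding genes. SIG3 (AT3G53920, chr3:19960789-19963980, minus strand) was one of the pair of genes with GNC peaks at more than 1 place in both lists. Its upstream peak, centred 516 bp before the gene start, scored 74.83 and 98.7, and its inner peak, in coding exon 7 of 9, scored 77.54 and 93.38. Both were higher in replicate 2. The upstream window is printed because it is a promoter peak of the set. The peak centre lies in AT3G00910, an annotated non-coding RNA gene.
SIG3 GNC, chr3:19964396-19964596, minus strand: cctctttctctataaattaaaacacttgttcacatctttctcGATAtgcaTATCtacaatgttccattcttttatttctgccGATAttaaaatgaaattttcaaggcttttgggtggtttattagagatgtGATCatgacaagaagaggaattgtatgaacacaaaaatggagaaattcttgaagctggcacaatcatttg
It held 3 GATA and 1 GATC.

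SIG5, a sigma factor known for its response to blue light and stress, had a GNC peak of 70.68 and 64.64 in intron 1 of 6, centred 449 bp from the start. SIG1, SIG2 and SIG6 had no peak. SIG1 had its nearest peak 2363 bp past the gene end, a GNC peak of 54.18 in replicate 2. SIG6 had a CGA1 peak 3096 bp upstream in replicate 2, and a high GNC peak of 149.03 and 178.84 lay farther off, 6957 bp upstream. SIG2, which is needed for normal greening of seedlings, had its nearest CGA1 peak 2127 bp and 2131 bp upstream, with scores of 73.73 and 64.61. That peak lay outside the window by little more than 100 bp.

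The PEP-associated proteins were the largest group, with 13 genes, of which 4 were called for GNC (PTAC7, PTAC10, PTAC14 and FLN1) and 2 for CGA1 (PTAC10 and FLN2). Their shares were 30.8% and 15.4%, against 22.9% and 9.94% of all protein-coding genes. FLN1 and FLN2 are fructokinase-like proteins that work together in the PEP complex. FLN1 had a GNC peak of 97.22 and 85.24, centred 1225 bp upstream where AT3G54080 and AT3G54085 overlap, with its nearest CGA1 peak 12233 bp away in replicate 1 and 7220 bp in replicate 2. FLN2 had a CGA1 peak of 64.97 and 57.31 in coding exon 3 of 5, and a GNC peak of 61.23 in replicate 1 only. The members of this pair were thus called for different factors. Calls for both factors were made at only 2.57% of all protein-coding genes, so this is no trait of the pair.

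PTAC14, a SET-domain protein, had a GNC peak of 72.7 and 72.11 in its 3′ UTR, 31 bp before the gene end. PTAC7 had one of 53.34 and 61.88 in intron 3 of 3, centred 685 bp from the start, the lowest GNC score in replicate 1 among these genes. PTAC6 had a GNC peak of 54.62 in its 3′ UTR in replicate 1 only. PTAC2, PTAC3, PTAC5, PTAC12, PTAC13, PTAC16 and PTAC17 had no peak. In both lists the nearest GNC peak was 2796 bp from PTAC2, 5285 bp from PTAC13 and 7822 bp from PTAC16, and the nearest CGA1 peak was 6303 bp from PTAC5. At PTAC3 the nearest GNC peak was 1675 bp away in replicate 1 and 32635 bp in replicate 2. At PTAC17 the nearest GNC peak was 4409 bp away in both lists, and the nearest CGA1 peak 2781 bp in replicate 1 and 18114 bp in replicate 2. PTAC12, also known for its part in phytochrome signalling, had a GNC peak of 50.48 and 64.3 lying 1309 bp past the gene end, outside the window. SCA3, the phage-type plastid RNA polymerase, had its nearest GNC peak 6439 bp away and its nearest CGA1 peak 40408 bp away.

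At the outer envelope, 2 of 7 TOC genes were called for GNC and 1 for CGA1, or 28.6% and 14.3%. Of all protein-coding genes, 22.9% and 9.94% were. TOC75-III (AT3G46740, chr3:17215813-17219411, minus strand), the protein-conducting channel, had GNC peaks at a pair of places. The stronger was centred 766 bp from the start in coding exon 1 of 7, was 606 bp long, and scored 164.11 in replicate 1, rank 37 of 5745, and 113.67 in replicate 2, rank 360 of 5722. The weaker, 76.69 and 69.98, was centred 1275 bp upstream inside AT3G46750. Both windows are printed because this is the second-strongest GNC peak of the set and its centre lacked the words that the upstream one held.
TOC75-III GNC, coding exon, chr3:17218545-17218745, minus strand: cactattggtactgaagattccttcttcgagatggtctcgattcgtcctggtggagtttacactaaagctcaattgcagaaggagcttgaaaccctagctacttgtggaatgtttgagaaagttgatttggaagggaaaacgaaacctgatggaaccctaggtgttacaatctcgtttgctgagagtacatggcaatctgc
TOC75-III GNC, upstream, chr3:17220586-17220786, minus strand: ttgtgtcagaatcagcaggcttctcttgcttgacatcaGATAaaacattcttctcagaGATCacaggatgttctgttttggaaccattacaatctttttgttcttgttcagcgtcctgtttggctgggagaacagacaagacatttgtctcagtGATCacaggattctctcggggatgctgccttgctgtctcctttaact
The exon window held 0 GATA and 0 GATC, and the upstream window 1 GATA and 2 GATC. Within 250 bp of the exon centre there were 7 GATA and 1 GATC.

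Of the receptor GTPases of the TOC complex, TOC132 was called for GNC and TOC120 for CGA1. Only 2.57% of all protein-coding genes were called for both factors, so different calls are no trait of these receptors. TOC132 and TOC120 are close relatives that act in the import of housekeeping proteins. TOC132 had a GNC peak of 56.07 and 65.92 across its start, centred 89 bp upstream and inside the neighbouring gene PRORP2. TOC120 had a CGA1 peak of 91.75 and 74.12 across its start, centred 150 and 148 bp into the gene in its only intron. TOC159, the main receptor for photosynthetic proteins, and TOC90 had no peak. The nearest GNC peak was 31068 bp from TOC159 in replicate 1 and 10778 bp in replicate 2, and 13540 bp from TOC90 in both. Of the small receptors, TOC34 had a GNC peak of 61.64 in its 5′ UTR in replicate 1 only, and TOC33 had its nearest GNC peak 12522 bp away in replicate 1 and 16064 bp in replicate 2.

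At the inner envelope TIC40 was called for both factors, while TIC110, a scaffold for stromal import factors, and TIC20-I, a channel component, had no peak. The nearest GNC peaks were 7387 bp away from TIC110 and 12261 bp away from TIC20-I.

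Of the 4 chaperonin genes, CPN20 was called for GNC and CPN60B1 for CGA1. Each is 25% of the group, against 22.9% and 9.94% of all protein-coding genes, of which 2.57% were called for both. CPN20, a co-chaperonin, had a GNC peak of 117.19 in replicate 1 and 72.34 in replicate 2, centred 66 bp past the gene end and inside NPH4. CPN60B1, a chaperonin subunit, had a CGA1 peak of 70.07 and 71.54 centred 1179 bp past the gene end, inside ZKT. Both peaks were thus centred in a neighbouring gene. CHL-CPN10, another co-chaperonin, had a CGA1 peak of 53.02 across its start in replicate 2 only, centred 25 bp upstream. In replicate 1 the nearest CGA1 peak was 7230 bp away. CPN60A1 had no peak, the nearest being a GNC peak of replicate 2 that lay 2942 bp upstream.

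**Figure D4:**
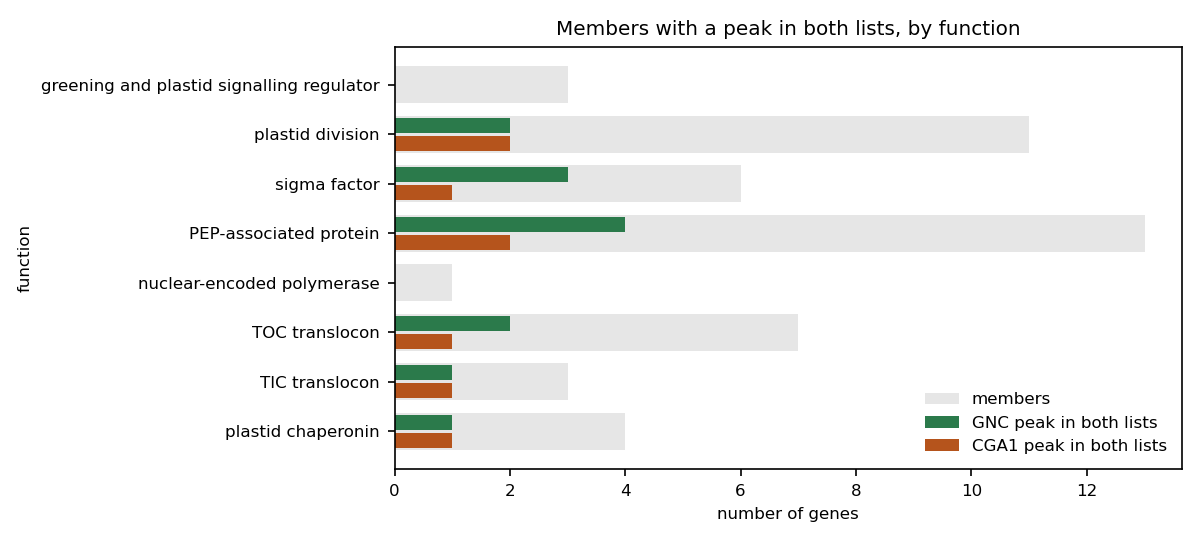
Number of genes (horizontal axis) in each functional group (light grey) and of those with a GNC peak (green) or a CGA1 peak (orange) in both lists. The sigma factors, with 3 of 6 for GNC, and the PEP-associated proteins, the largest group, with 4 of 13, held the longest green bars, and the greening regulators held none of either colour. Bars are counts, and the shares of all protein-coding genes, 22.9% for GNC and 9.94% for CGA1, are not drawn.

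By group, the GNC share was 50% of the sigma factors, 33.3% of the TIC genes, 30.8% of the PEP-associated proteins, 28.6% of the TOC genes, 25% of the chaperonins, 18.2% of the division genes and 0% of the regulators and of the polymerase, against 22.9% of all protein-coding genes. For CGA1 it was 33.3% of the TIC genes, 25% of the chaperonins, 18.2% of the division genes and 16.7% of the sigma factors. The PEP-associated proteins had 15.4%, the TOC genes 14.3%, and the regulators and the polymerase 0%, against 9.94% of all protein-coding genes. The groups hold 1 to 13 genes, so a change of 1 gene moves these shares by several percentage points or more, and no difference between groups was tested.

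Measured from the gene itself, 20.8% of the plastid genes were overlapped by a GNC peak in replicate 1 and 18.8% in replicate 2, against 14% and 13.8% of all protein-coding genes. For CGA1 the shares were 12.5% and 14.6% against 6.42% and 6.2%. A longer gene offers more room for overlap, and the median gene length was 3117 bp against 2078 bp. These shares were not adjusted for it. The median distance to the nearest GNC peak was 3502 bp and 4403 bp, against 5091 bp and 5181 bp. For CGA1 it was 13996 bp in replicate 1 and 9047 bp in replicate 2, against 13832 bp and 14217 bp. The GNC distances were thus shorter than those of all genes in both lists, and the CGA1 distances in 1 list only. The 25 genes with no peak had their nearest GNC peak 1309 bp to 31068 bp away in replicate 1 and 1309 bp to 32635 bp in replicate 2. Their nearest CGA1 peak was 1123 bp to 107091 bp away in replicate 1 and 1123 bp to 107095 bp in replicate 2, the farthest at PTAC3.

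**Figure D5:**
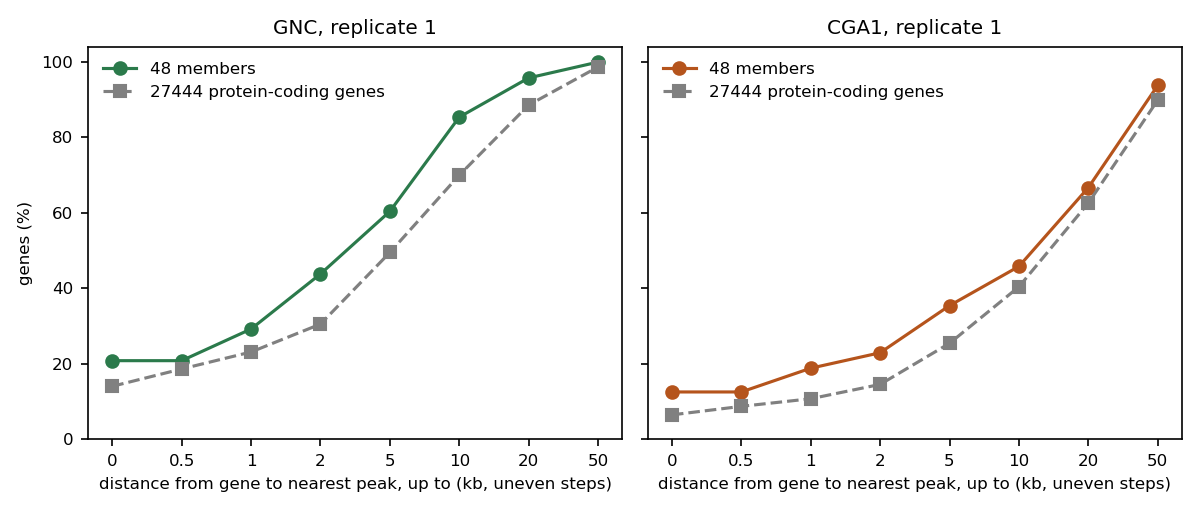
Share of genes (%, vertical axis) with a peak of replicate 1 within the distance given on the horizontal axis (kb from the gene, uneven steps, 0 for overlap), for the 48 plastid genes (coloured) and for 27444 protein-coding genes (grey), GNC on the left and CGA1 on the right. The coloured line is the higher at every step, for example 43.8% against 30.5% within 2 kb for GNC and 22.9% against 14.5% for CGA1. The plastid genes are longer at the median, and the shares are not adjusted for gene length.

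The peaks at the plastid genes held the GATA word that gives this family its name, as did nearly all other windows. Within 250 bp on each side of the centre, GATA on either strand was found in 15 of 15 GNC and 8 of 8 CGA1 windows. It was also found in 98.4% of the windows of all peaks of either factor and in 98.2% of promoter windows of the same length. GATC, which reads the same on both strands, was found in 14 of 15 GNC windows against 80% of all GNC peaks, and in 7 of 8 CGA1 windows against 79.2%, with 70.8% of promoters. PTAC14 was the GNC window and PTAC10 the CGA1 window with none.

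Within 100 bp of the centre the shares were lower. GATA was found in 11 of 15 GNC and 6 of 8 CGA1 windows, against 81.3% and 82.6% of all peaks and 80.5% of promoters. GATC was found in 11 of 15 GNC windows against 48.9% of all GNC peaks, and in 3 of 8 CGA1 windows against 48.4%, with 36.7% of promoters. No share was tested. Of the other words searched on both strands within 250 bp, TGGGCC was in 0 windows of either factor, against 9.13% and 7.46% of all peaks and 17.9% of promoters. GAGAGA was in 5 GNC and 3 CGA1 windows, against 38.8% and 40.2%. CANNTG was in 14 and 7, against 84.2% and 83.6%, and CACGTG, which is a case of it, in 1 and 1, against 6.84% and 6.67%. A match is a string of letters in the window and not a measured site.

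A further list of 49 genes of plastid division, transcription, import and folding outside the 48 gave a view of the rest of these pathways, and 47 of them carried their name in the annotation used. Of the 47, 8 were called for GNC, or 17%, and 3 for CGA1, or 6.38%, and 0 for both. AT5G15700, listed as RPOTMP, was left out for its name although it had a CGA1 peak of 52.35 and 50.45, which lowers the CGA1 count. The shares of the 47 were below those of all protein-coding genes, 22.9% for GNC, 9.94% for CGA1 and 2.57% for both. Those of the 48 were above them. The difference was not tested. The strongest was SPP, the stromal protease that removes transit peptides, with a GNC peak of 127.17 and 119.88 in intron 3 of 23. MSL2, a mechanosensitive channel of the envelope that affects division, had a GNC peak of 85.61 and 51.05 in its 5′ UTR, 51 bp from the start. TIC21 had a GNC peak in intron 2 of 3, and FZL, PTAC9, PTAC15, CLPC2 and cpHsc70-1 had theirs past the gene end. For CGA1, HSP90C, a stromal chaperone, had a peak of 84.64 and 79.21 in coding exon 1 of 19. PRIN2, a PEP-associated redox protein, had one of 55.69 and 50.14 upstream, centred 141 bp and 139 bp before the start. TOC75-IV had one past its gene end. Of these 11 genes, PRIN2 and MSL2 thus had peaks close to the start.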

How the data were processed

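IP and INPUT DNA of 8 libraries had been sequenced. According to the methods and labels, reads were trimmed and aligned to TAIR10 by the authors with Bowtie2 2.2.6. Reads with more than 1 match were removed, and MACS peaks were called separately in every replicate. The deposited score of a peak is on the MACS scale and was not normalized further. No read counts were used here. Samples were grouped by title, and the lists were matched to the IP samples by name. For CGA1 INPUT, the description fields point to GNC lists, which goes against the titles, so the INPUT behind each score could not be checked.

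Peaks on the 5 nuclear chromosomes were placed on TAIR10.1 protein-coding genes with Python 3.11.15, pandas and numpy, counting from 1. The overlap search was tested on simulated peaks and checked with bedtools. All peak ends fell inside the chromosome lengths of TAIR10.1. Each GNC list also held 1 peak outside the nuclear chromosomes, which was not placed on genes but stayed in the list totals and ranks. No test was run, and counts are set beside all protein-coding genes. Members and lists were chosen with earlier results of these data known. Every gene with a peak in its window was to be described, genes without one named with the distance to their nearest peak, genes of the further list named where called, and sequence shown for the highest mean scores and for genes with peaks of both factors, outside UTRs. SIG3 was added to the printed sequences after its values were seen.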

Additional observations from a re-analysis of the deposited data

How the results depend on the processing

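No paired analysis was possible because the results come from no test and the lists of a line count as 1 sample. With 1 list alone, the counts ran from 13 to 18 genes for GNC, 9 to 9 for CGA1 and 3 to 4 for both factors, GNC replicate 1 alone giving the 18, and the ratio of the share to that of all protein-coding genes ran from 1.01 to 1.39 for GNC and from 1.48 to 1.53 for CGA1. With scores of at least 100 only, 2 genes were called for GNC, or 4.17%, 0 for CGA1 and 0 for both. Of all protein-coding genes, 2.61%, 0.762% and 0.0364% were called. The GNC ratio was 1.59 and the CGA1 ratio 0. With the peak centre in the promoter window the counts were 2, 0 and 0, against 5.35%, 2.25% and 0.138% of all protein-coding genes. The CGA1 ratio was 0 and the GNC ratio 0.779. When each peak counted for the nearest protein-coding gene only, 6, 5 and 0 genes were called, and the GNC ratio was 0.87 while that of CGA1 stayed at 1.68. From 1 kb upstream to the gene end 1 gene was called for both factors, 2.08% against 1.29% of all. Without peaks centred in another gene, an alternative chosen after seeing the data, GNC called 8 genes, 16.7% against 16.0% of all. Peak centres inside the window, or peaks that overlapped between the lists, moved no count by more than 1.5 times. Within 100 bp of the centre, GATA was in 73.3% of GNC windows in place of 100%, and GATC in 37.5% of CGA1 windows in place of 87.5%. The cause of these moves was not tested. Library depth was not analysed here, which limits what a missing peak can show.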
